A study of Rattus norvegicus with 4 samples.

Results

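The glucocorticoid and corticotropin-releasing hormone (CRH) stress axis of the hippocampus was followed through 10 genes: the steroid receptors Nr3c1 and Nr3c2, the steroid-activating enzyme Hsd11b1, the hormone-responsive genes Fkbp5, Sgk1 and Tsc22d3, the peptide Crh, its receptors Crhr1 and Crhr2, and its binding protein Crhbp. The members were chosen by symbol, and every probe of the array whose RefSeq accession resolved to one of these symbols was taken, whatever its signal. This gave 16 probes of 10 genes among 41012 probes, of which 10768 probes could be named as 8899 genes. Hippocampal RNA came from male Wistar rats that entered the study at 10 weeks of age and were housed singly on a cycle of 12 h light and 12 h dark. They were sedentary in standard cages (10 rats), ran for 4 weeks in a wheel without resistance (WR, 8 rats) or ran for 4 weeks in a wheel with resistance (RWR, 8 rats). The wheels were open 24 h per day, and the RWR load began at 4.5 g in the first week and was raised to 30% of body weight. RNA of replicates was pooled within each group in equal amounts, and how many rats a replicate stood for is not given in the sources used here. Chips 1 and 2 compared the WR pool with the sedentary pool and chips 3 and 4 the RWR pool with the sedentary pool, all on 1 slide. The running pool carried the dye Cy5 on chips 1 and 3 and Cy3 on chips 2 and 4.

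Corticosterone, the glucocorticoid of the rat, is released when hypothalamic CRH drives the pituitary and the adrenal cortex, and it crosses into the brain. The hippocampus is rich in both of its receptors: the mineralocorticoid receptor, encoded by Nr3c2, holds the hormone at resting levels, and the glucocorticoid receptor, encoded by Nr3c1, is filled further as levels rise. Both receptors enter the nucleus and change the transcription of genes such as Fkbp5, Sgk1 and Tsc22d3, and hippocampal output restrains the axis. CRH is also made within the hippocampus, by interneurons.

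The chips of a pair repeat the same pools, so each comparison had 1 biological replicate, no test between conditions was possible, and the number of chips limits the precision. Values are log2 ratios of running over sedentary on each chip, and the mean of a pair is given with the distance of either chip from that mean after the sign ±. Over the whole array, the sign of a probe's ratio tended to turn between the chips of a pair. Turned to running over sedentary, the ratios of a pair of chips had a Pearson correlation over probes of -0.761 in Sed × WR and -0.686 in Sed × RWR, given as a description since probes are not replicates. The labels and the methods both state the swap of dyes, and the directions here rest on them. From these files, a dye effect and a swap that was not made as labelled cannot be told apart. If a chip was not swapped, all its ratios would have the opposite sign, every pair mean that includes it would change, and a sign said below to follow the dye would follow the pool. Chips held between 118 and 140 spots with an outlier flag, which were left out, and none was saturated. Markers of the tissue were present: the dentate granule cell genes Calb1 and Neurod1 and the pyramidal cell genes Wfs1 and Pcp4 were well above background in Cy3 and Cy5 on all 4 chips, and of 6 choroid plexus genes Ttr and Folr1 were too, while Kl and Kcne2 were above it in neither dye on any chip.

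None of the 16 stress-axis probes was up- or down-regulated in either comparison. A probe was called when both chips of its pair put it above 1.5-fold, or both put it below 0.75-fold, each with a deposited p-value under 0.01. The count was 0 of 16 in Sed × WR, where 0.0317% of all probes were called, and 0 of 16 in Sed × RWR, where 0.0585% were called. It was also 0 of 16 in both comparisons without the p-value filter, when 0.549% of all probes were called in Sed × WR and 1.48% in Sed × RWR. With background shares this low, a count of 0 says little about 16 probes. Of the 16 probes, 13 from 8 genes were bright, meaning well above background in Cy3 and Cy5 on all 4 chips, against 60.8% of all probes, and the other 3 were the Crhr1 and Crhr2 probes and the dimmer Nr3c2 probe. Over the 13 bright probes the mean log2 ratio of a pair ranged from -0.069 to 0.18 in WR, with a median of 0.019, and from -0.11 to 0.21 in RWR, with a median of -0.033. The middle 95% of the 24953 bright probes of the array spanned -0.20 to 0.21 in WR and -0.21 to 0.21 in RWR. The p-value of a probe was the median of the deposited p-values of its spots. The lowest for a bright stress-axis probe on any chip was 0.0636, for Crh on chip 1. Single spots went lower, and a kept spot of this probe on chip 1 had 0.0056. The deposited p-values come from the error model of the scanner software and describe the measurement on a chip.

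**Figure D1:**
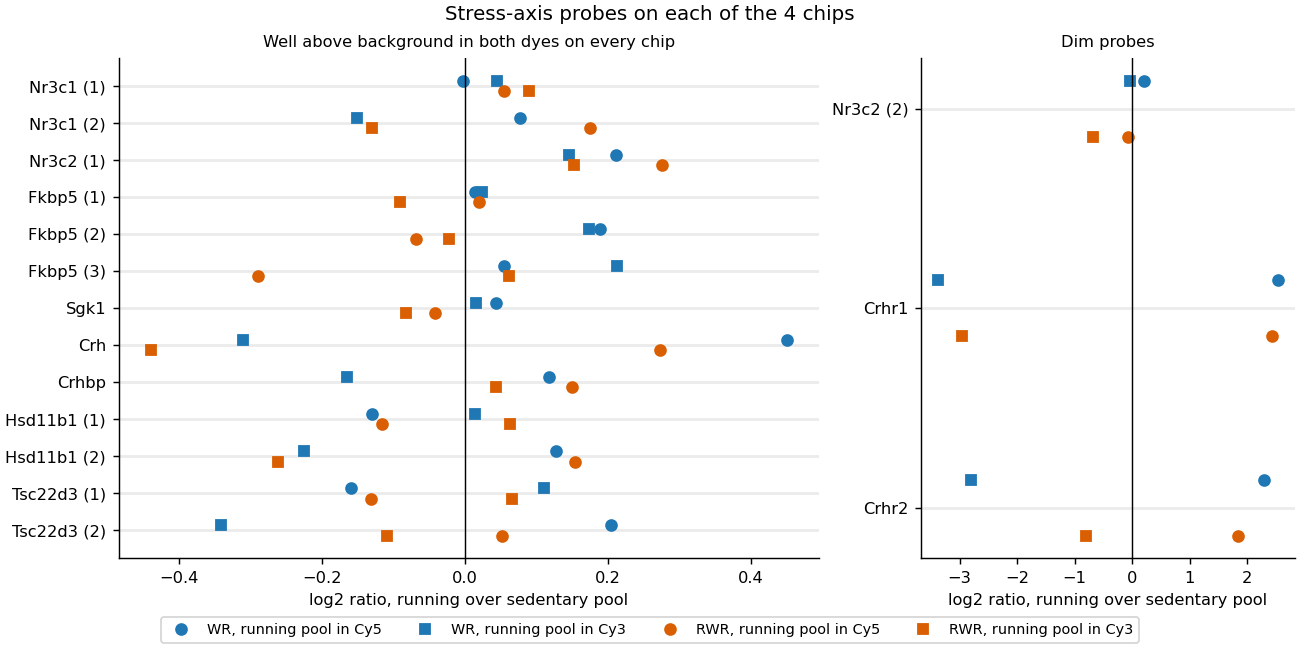
Log2 ratio of running over sedentary for each of the 16 stress-axis probes (rows, numbered within a gene by falling signal) on each chip, with WR in blue and RWR in orange, circles where the running pool was in Cy5 and squares where it was in Cy3. The left panel holds the 13 probes well above background everywhere, all between -0.44 and 0.45, and the right panel the 3 dim probes on a wider axis, where Crhr1 and Crhr2 change sign between the chips of a pair.

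Of the 2 receptors for corticosterone, the mineralocorticoid receptor gave the higher ratio in both modes of running on its bright probe, but its dimmer probe had a mean of -0.37 in RWR. The bright probe (A_43_P15261) read 0.21 on chip 1 and 0.15 on chip 2 in WR, and 0.28 on chip 3 and 0.15 on chip 4 in RWR. The processed signal, the spot's brightness after background subtraction and dye normalization, was 2889 for the sedentary pool against 3346 for the WR pool on chip 1 and 2818 against 3117 on chip 2. It was 3177 for the sedentary pool against 3848 for the RWR pool on chip 3 and 2852 against 3170 on chip 4. The running pool was the brighter on each of the 4 chips, in Cy5 and in Cy3. The mean log2 ratio was 0.18 ± 0.033 in WR, a 1.13-fold ratio, and 0.21 ± 0.062 in RWR, a 1.16-fold ratio (n = 2 chips of 1 pool each). Both chips lay above 0 for 14.5% of all bright probes in Sed × WR and for 16.7% in Sed × RWR. The share of all bright probes above 0 on all 4 chips was not counted. The WR mean lay within the middle 95% of bright probes and the RWR mean just above its upper end. The error model gave each chip an error of 0.20 to 0.21 on the log2 scale, about as large as the ratios, and p-values of 0.301 and 0.476 in WR and 0.179 and 0.455 in RWR. In whole tissue, more cells that express Nr3c2 and more of its RNA per cell cannot be told apart. Both comparisons used sedentary rats as the reference, so their values are not independent.

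With normexp background correction, an alternative to the software's own, the bright Nr3c2 probe read 0.23 and 0.14 in WR and 0.27 and 0.18 in RWR. It was again above 0 on each chip. The dimmer Nr3c2 probe (A_44_P158441), with a mean signal of 34.1, read 0.21 and -0.031 in WR and -0.067 and -0.68 in RWR, and the RWR pool was not well above background on chip 4. The genes closest to Nr3c2 over the 4 chips, by Euclidean distance between their log2 ratios, were Epha7 at 0.0426 and Pcsk1 at 0.107 among 7374 candidate probes. Epha7, an ephrin receptor of neurons, read 0.25, 0.15, 0.28 and 0.16 on chips 1 to 4, and Pcsk1, a prohormone convertase, read 0.13, 0.11, 0.21 and 0.14.

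The summed signal of the 5 oligodendrocyte markers was 64750 to 72750 in the sedentary pool and 61960 to 68740 in the WR pool on chips 1 and 2, and 66640 to 82160 in the sedentary pool against 61080 to 73530 in the RWR pool on chips 3 and 4. Compared within a chip, this sum was lower in the running pool on every chip. All 5 of these markers had a mean log2 ratio below 0, between -0.10 and -0.061 in WR and between -0.24 and -0.069 in RWR. Both chips of the pair were below 0 for 2 of the 5 in WR and for 3 in RWR. Of all bright probes, 13.9% had both chips below 0 in WR and 16.2% in RWR. The 2 granule cell markers with a named probe lay between 0.023 and 0.033 in WR and between 0.0098 and 0.072 in RWR, with a summed signal of 3662 to 3812 in the sedentary and 3695 to 3930 in the WR pool, and of 3742 to 4182 in the sedentary and 3748 to 4375 in the RWR pool. Within a chip, the granule cell sum was higher in the running pool on every chip. The 3 pyramidal cell markers with a named probe had pair means between -0.053 and 0.097 in WR. In RWR they lay between -0.073 and 0.044. Their summed signal was 24990 to 28260 in the sedentary and 24810 to 26740 in the WR pool on chips 1 and 2. On chips 3 and 4 it was 24010 to 31050 in the sedentary and 23430 to 29000 in the RWR pool. Within a chip, the pyramidal cell sum was lower in the running pool on every chip. The part of cell composition in the Nr3c2 ratio was not tested.

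The glucocorticoid receptor stayed closer to 0. Its brighter probe (A_44_P477376) read -0.0030 and 0.044 in WR and 0.055 and 0.090 in RWR, with pair means of 0.021 ± 0.024 and 0.072 ± 0.017. The other probe (A_43_P15242), printed as 10 spots, read 0.077 and -0.15 in WR and 0.17 and -0.13 in RWR. On this probe the sign followed the dye in both pairs: the ratio was above 0 where the running pool was in Cy5 and below 0 where it was in Cy3. The SD over its spots was 0.022 to 0.028 on the 4 chips, smaller than the distance between the chips of a pair. Its pair means were -0.037 ± 0.11 in WR and 0.022 ± 0.15 in RWR, so the 2 Nr3c1 probes had opposite signs in WR and means near 0 in both.

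Hsd11b1, which regenerates active corticosterone from its inert keto form inside cells, had 2 bright probes that did not share a direction on any chip. The first (A_44_P426345) read -0.13 and 0.013 in WR and -0.12 and 0.063 in RWR. The second (A_44_P1018957) read 0.13 and -0.23 in WR and 0.15 and -0.26 in RWR. Each probe was on one side of 0 when the running pool was in Cy5 and on the other when it was in Cy3, and the order was opposite for the 2 probes. Their pair means were -0.059 ± 0.072 and -0.049 ± 0.18 in WR and -0.027 ± 0.090 and -0.054 ± 0.21 in RWR, all within the distance between chips.

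One Fkbp5 probe and the Sgk1 probe lay above 0 on both WR chips, as did 14.5% of all bright probes, and below 0 on both RWR chips, as did 16.2% of all bright probes. Fkbp5 encodes a chaperone partner of the glucocorticoid receptor that lowers its affinity for hormone, and its induction closes a short feedback loop. Sgk1 encodes a kinase induced by both steroid receptors. Both comparisons used sedentary rats as the reference, so these shares do not combine. The share of all bright probes with this order of signs over the 4 chips was not counted. The RefSeq start sites of these 2 hormone-responsive genes are shown as a description. No link between their sequences and the ratios was tested. Each window runs from 250 bases before to 50 bases after a start on GRCr8, 5′ to 3′ on the minus strand, at chr20:6543506-6543805 for Fkbp5 and chr1:24804782-24805081 for Sgk1, which has 3 windows in the table. Capitals mark matches on either strand to the GC box, spelled GGGCGG, to the pentamer CCAAT, and to the TATA box, spelled TATAAA. None of the matches overlap in these windows.
Fkbp5: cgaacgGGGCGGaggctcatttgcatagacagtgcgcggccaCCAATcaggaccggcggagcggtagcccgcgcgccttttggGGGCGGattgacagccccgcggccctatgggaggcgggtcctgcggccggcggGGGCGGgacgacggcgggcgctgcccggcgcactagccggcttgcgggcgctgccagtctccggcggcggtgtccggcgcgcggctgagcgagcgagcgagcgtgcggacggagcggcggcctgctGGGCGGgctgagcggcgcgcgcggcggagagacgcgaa
Sgk1: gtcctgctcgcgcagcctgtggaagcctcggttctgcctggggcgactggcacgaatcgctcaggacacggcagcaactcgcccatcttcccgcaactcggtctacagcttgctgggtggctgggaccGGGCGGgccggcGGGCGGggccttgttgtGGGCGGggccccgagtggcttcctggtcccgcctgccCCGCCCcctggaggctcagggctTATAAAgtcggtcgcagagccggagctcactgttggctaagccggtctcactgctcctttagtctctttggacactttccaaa
The Fkbp5 window holds 4 GC boxes and 1 CCAAT pentamer and no TATA box. The Sgk1 window holds 4 GC boxes and 1 TATA box and no CCAAT pentamer. The GC box is found in 33.1% of the 33469 windows of the RefSeq table, the CCAAT pentamer in 37.5% and the TATA box in 14.2%. The letters AGAACA, a core of the palindrome that both steroid receptors bind, are in 20.7% of all windows, searched on both strands, and in 0 of the 13 windows of the 7 members that matched the table (Nr3c1, Fkbp5, Sgk1, Tsc22d3, Crhr1, Crhr2 and Crhbp). Nr3c2, Hsd11b1 and Crh had no entry. Several of the 13 windows belong to the same gene, and the 2 windows of Crhr1 overlap. Sequence outside the windows was not searched, so the count of 0 does not describe receptor sites elsewhere in these genes.

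Fkbp5 was read by 3 probes of different brightness. The middle probe (A_44_P519167, mean signal 469) read 0.19 and 0.17 in WR and -0.068 and -0.023 in RWR. Its signal was 459 in the sedentary against 524 in the WR pool on chip 1, 430 against 486 on chip 2, 503 in the sedentary against 479 in the RWR pool on chip 3 and 440 against 434 on chip 4. The WR pool was above the sedentary pool in both dyes and the RWR pool below it in both, with pair means of 0.18 ± 0.0075 and -0.046 ± 0.023. The brightest probe (A_44_P532249) read 0.015 and 0.023 in WR and 0.020 and -0.090 in RWR. The dimmest (A_43_P18969, mean signal 117) read 0.055 and 0.21 in WR and -0.29 and 0.061 in RWR. All 3 probes had a pair mean above 0 in WR (0.019, 0.18 and 0.13) and below 0 in RWR (-0.035, -0.046 and -0.11), but the chips of the RWR pair had the same sign on the middle probe only, and with normexp correction that probe read 0.014 on chip 4. The probes target the same transcript and are not replicates of a condition.

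Sgk1 had a single probe (A_44_P313542) with ratios close to 0. It read 0.043 and 0.015 in WR and -0.042 and -0.083 in RWR, with pair means of 0.029 ± 0.014 and -0.063 ± 0.020. Tsc22d3, which encodes the glucocorticoid-induced leucine zipper protein GILZ, did not share the pattern. Its brighter probe (A_42_P822638) read -0.16 and 0.11 in WR and -0.13 and 0.066 in RWR, and its dimmer probe (A_44_P346807) read 0.20 and -0.34 in WR and 0.053 and -0.11 in RWR. The sign of both Tsc22d3 probes followed the dye in both pairs, in opposite orders.

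A direct view of RWR against WR takes chips with the same dye orientation, chip 3 minus chip 1 and chip 4 minus chip 2, so that a dye effect shared by the chips drops out. For the brightest Fkbp5 probe this log2 difference was 0.0051 and -0.11, on either side of 0. For the middle Fkbp5 probe the difference was -0.26 and -0.20, and for the dimmest -0.35 and -0.15. For Sgk1 it was -0.085 and -0.098, and for Crh -0.18 and -0.13, a mean of -0.15 that was 0.015 with normexp correction. These were the 4 of the 13 bright probes with both differences below 0, and 28.9% of all bright probes had both below 0. The 5 with both above 0, against 28.1% of all bright probes, were the 2 Nr3c1 probes, the bright Nr3c2 probe, Crhbp and the first Hsd11b1 probe. Their mean differences lay between 0.032 and 0.12, and that of Nr3c2 was 0.036, from 0.064 and 0.0070. Both Nr3c2 differences lay 0.029 from their mean. With 1 pool per group, a difference of Nr3c2 between the modes was not tested.

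**Figure D2:**
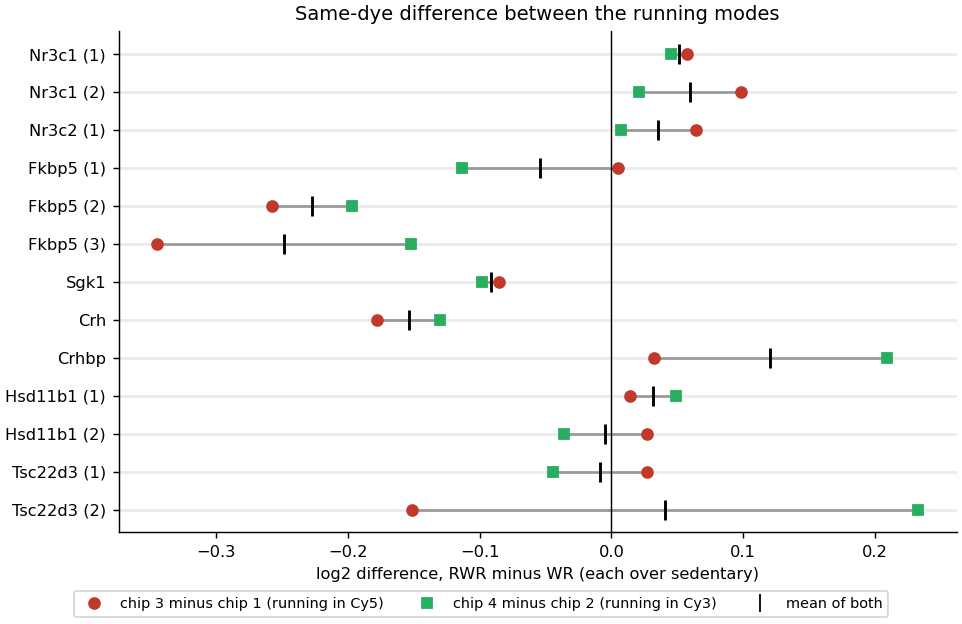
Log2 difference of RWR minus WR, each over sedentary, for the 13 bright probes (rows, numbered as in the plot of ratios by chip), with circles for chip 3 minus chip 1, squares for chip 4 minus chip 2 and a bar for their mean. The lowest means are those of the middle and dimmest Fkbp5 probes, -0.23 and -0.25, and the Crhbp mean of 0.12 is the highest.

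On the peptide side, Crh was detected and its ratio followed the dye. Its probe (A_43_P12478), printed as 10 spots with 8 to 10 kept per chip, read 0.45 and -0.31 in WR and 0.27 and -0.44 in RWR. The signal was 65.5 in the sedentary against 89.3 in the WR pool on chip 1 and 78.3 against 63.2 on chip 2. It was 72.8 in the sedentary against 87.8 in the RWR pool on chip 3 and 72.3 against 53.3 on chip 4. Whichever pool carried Cy5 was the brighter on every chip. The Cy5 excess was 0.38 on the log2 scale in the WR pair and 0.36 in the RWR pair, larger than the SD over spots of 0.069 to 0.15. With the dye averaged out, the pair means were 0.070 ± 0.38 and -0.084 ± 0.36. The 8 interneuron markers with a probe had pair means between -0.019 and 0.13 in WR and between -0.035 and 0.24 in RWR. They summed to 52540 to 55900 in the sedentary and 51250 to 58900 in the WR pool, and to 51320 to 58950 in the sedentary and 52710 to 63300 in the RWR pool. Within a chip, this sum was higher in the running pool on chips 1, 3 and 4 and lower on chip 2. The part of interneurons in the Crh values was not tested.

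**Figure D3:**
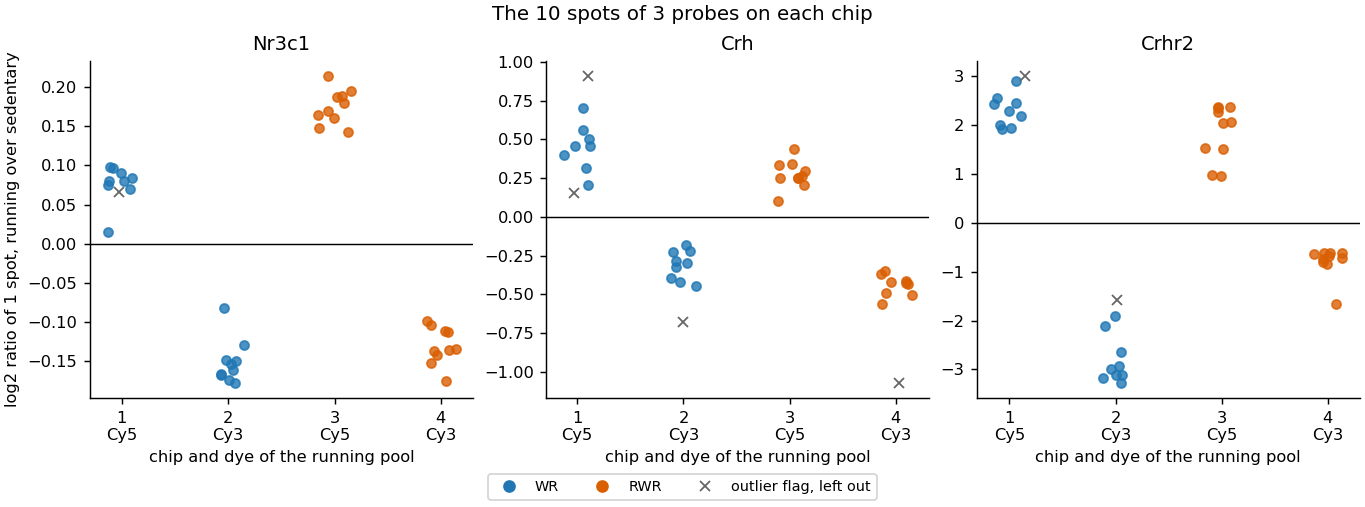
Log2 ratio of running over sedentary at each spot of the 3 stress-axis probes printed as 10 spots (Nr3c1, Crh, Crhr2), by chip and dye of the running pool, with WR in blue, RWR in orange and crosses for spots with an outlier flag. On all 3 probes each kept spot is above 0 on chips 1 and 3 and below 0 on chips 2 and 4.

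The CRH receptors were at the edge of detection, and single chips gave large ratios that turned over with the dye. Crhr1, the main CRH receptor of forebrain neurons, read 2.53 and -3.38 in WR and 2.43 and -2.97 in RWR (A_42_P688027). Its signal was 26.5 to 40.0 in whichever pool carried Cy5 and 3.86 to 7.10 in the pool that carried Cy3, and it was well above background in Cy5 only, on all 4 chips. Crhr2, the receptor that prefers urocortins, read 2.30 and -2.81 in WR and 1.85 and -0.79 in RWR (A_43_P12312, 9 or 10 spots kept per chip). Its signal was well above background in Cy5 only on chips 1 to 3 and in both dyes on chip 4, where it was 68.4 in the sedentary pool and 40.4 in the RWR pool. These were the only members past the cutoffs with p under 0.01 on a single chip: both would have been called up-regulated on chips 1 and 3 and down-regulated on chips 2 and 4. On single chips, 3.92% of all probes passed on chip 1, 7.81% on chip 2, 6.89% on chip 3 and 6.27% on chip 4. The size of these ratios rests mostly on Cy3 signals not above background and is no measure of a dye or a running effect. With normexp correction Crhr1 read 0.15 and -0.87 in WR and 0.75 and -0.59 in RWR, and Crhr2 read 0.18 and -0.70 in WR and 0.62 and -0.46 in RWR. No difference in either receptor was detectable at this signal.

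**Figure D4:**
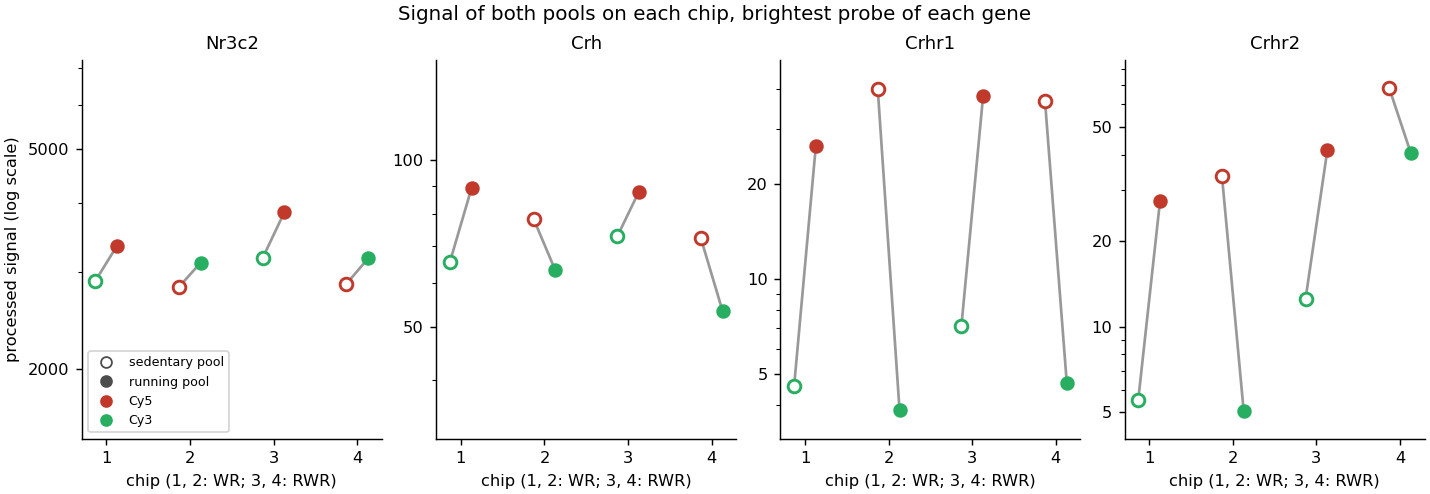
Processed signal on a log axis of the sedentary pool (open circles) and the running pool (filled circles) on each chip for the brightest probes of Nr3c2, Crh, Crhr1 and Crhr2, with Cy5 in red and Cy3 in green and a line joining the pools of a chip. For Nr3c2 the running pool is higher on every chip, and for the other 3 genes the pool in Cy5 is higher on every chip.

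Choroid plexus epithelium is a known site of Crhr2. Of its 6 markers, Ttr, which encodes the secretory protein transthyretin, was down-regulated in WR, at -0.72 and -0.99, and read 0.20 and 0.042 in RWR. The other 5 were not called in either comparison, and 3 of the 6 had a mean below 0 and 3 above 0 in WR. The 6 choroid plexus markers summed to 606.5 to 610.4 in the sedentary pool and 326.0 to 424.8 in the WR pool on chips 1 and 2, and to 647.2 to 673.5 in the sedentary and 656.6 to 768.0 in the RWR pool on chips 3 and 4. Ttr had a mean signal of 496 and Folr1, the next brightest of the 6, had 47.3, so these sums mostly follow Ttr. The part of choroid plexus in the Crhr2 values was not tested.

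Crhbp, a secreted protein that binds CRH and keeps it from its receptors, was well above background everywhere (A_44_P104054, mean signal 390). It read 0.12 and -0.17 in WR and 0.15 and 0.044 in RWR, with pair means of -0.024 ± 0.14 and 0.097 ± 0.053. The RWR pool was above the sedentary pool in both dyes and the WR pool was above it in Cy5 only. Over the 13 bright probes, both chips had the same sign for 5 probes in WR, against 28.4% of all bright probes. All 5 were above 0 and 0 were below, where 14.5% of all bright probes had both WR chips above 0 and 13.9% both below. The 5 were the 3 Fkbp5 probes, the Sgk1 probe and the bright Nr3c2 probe, so they stand for 3 genes. With normexp correction the brightest Fkbp5 probe read 0.15 and -0.040 in WR and the dimmest read -0.014 and 0.24. Neither then had the same sign on both WR chips. In RWR both chips had the same sign for 5, against 32.8% of all bright probes, and of these 3 were above and 2 below 0. Both RWR chips were above 0 for 16.7% of all bright probes and below 0 for 16.2%. With 1 probe per gene, the brightest, the median log2 ratio of the 10 genes was -0.0023 in WR and -0.030 in RWR, beside 0.0016 and -0.0047 over all 8899 named genes.

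**Figure D5:**
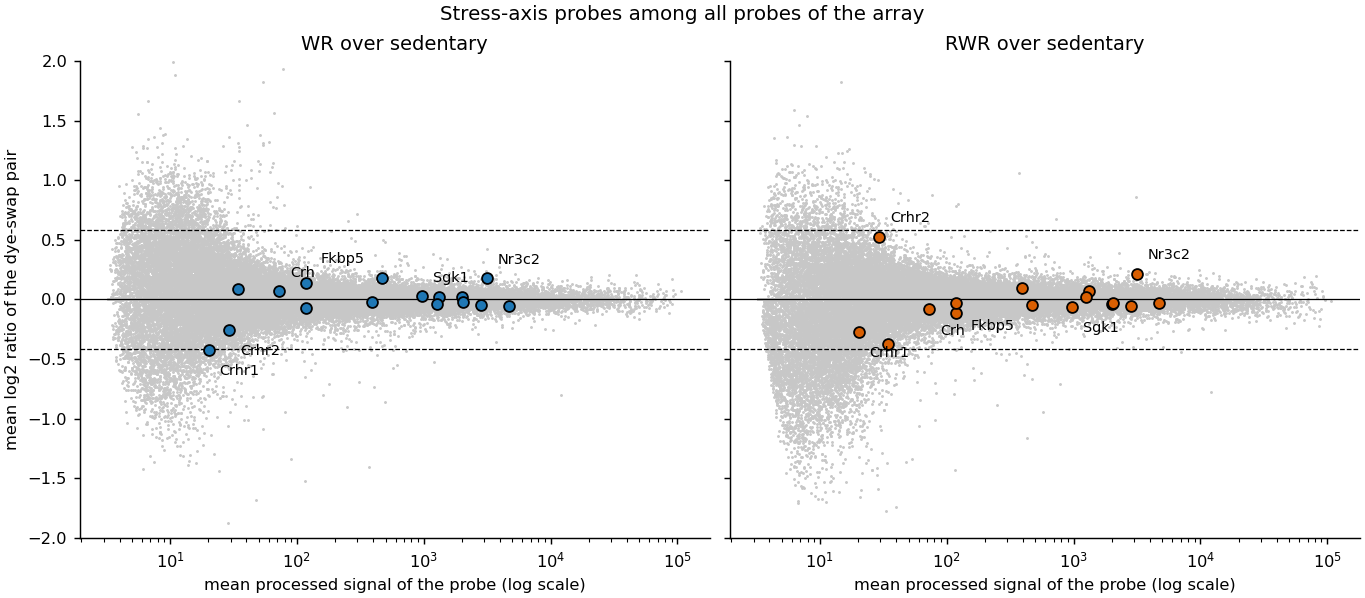
Mean log2 ratio of a dye-swap pair against mean processed signal (log axis) for all probes (grey) and the 16 stress-axis probes (coloured), for WR on the left and RWR on the right, with dashed lines at 1.5-fold and 0.75-fold. Bright stress-axis probes lie between -0.11 and 0.21, the 3 dim ones lie where all probes scatter widely, and 2 probes of the array lie outside the RWR panel.

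The wider pathway was described with 7 lists of 91 genes outside the members, of which 61 had a named probe (87 probes) and 45 had a brightest probe well above background everywhere. None of the 87 probes was up- or down-regulated in either comparison, at the same backgrounds of 0.0317% and 0.0585%. The median log2 ratio of the 61 genes was 0.0083 in WR and -0.00037 in RWR. Among 17 glucocorticoid-induced genes with a probe, 15 were bright, and both chips were above 0 for 2 and below 0 for 3 of these in WR and for 0 and 3 in RWR. Both chips were below 0 for 13.9% of all bright probes in WR and for 16.2% in RWR, so these counts of 3 in 15 are near the background. The 3 below 0 in WR and the 3 in RWR were Cdkn1a, which encodes the cell cycle inhibitor p21, Gadd45g, a stress-response gene, and Sult1a1, a sulfotransferase. Cdkn1a read -0.13 and -0.31 in WR and -0.034 and -0.14 in RWR, Sult1a1 read -0.20 and -0.068 in WR and -0.16 and -0.061 in RWR, and Gadd45g stayed between -0.082 and -0.0072.

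In the other lists, the genes furthest from 0 with the same sign on both chips of a pair were as follows, each well above background. Of the receptor chaperones, which fold the steroid receptors for hormone binding, Hsp90ab1 read 0.11 and 0.12 in WR (A_44_P116130). Its brighter probe read 0.055 and 0.037. Hspa8 read -0.25 and -0.15 in RWR on the dimmest of its 4 probes (A_44_P396546). The brightest Hspa8 probe (A_44_P452492) read -0.21 and 0.11 in RWR. Avp, the peptide vasopressin that acts with CRH on the pituitary, read -0.14 and -0.36 in RWR on its brighter probe. A dimmer Avp probe, not well above background everywhere, read 0.64 and -0.82. Scnn1a, a subunit of the sodium channel that aldosterone controls, read 0.035 and 0.16 in WR on its brighter probe. A dimmer Scnn1a probe, not well above background everywhere, read 2.04 and -0.35. Prkacb, a catalytic subunit of the kinase downstream of CRH receptors, read -0.17 and -0.095 in RWR on its dimmer probe and -0.12 and -0.016 on its brighter one. The steroid synthesis list had 11 genes with a probe but 3 bright ones, and the nuclear receptor cofactors had 4, all bright, and neither list had a bright gene with the same sign on both chips of a pair. None of these passed the cutoffs.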

How the data were processed

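Pooled hippocampal RNA of sedentary, WR and RWR rats was measured on 4 chips of a 2-colour Agilent rat oligo array. The authors processed the scans with Agilent Feature Extraction 11.0.1.1 (background subtraction, LOWESS dye normalization). They deposited for each spot the processed signal (intensity) of each dye, the log10 ratio of Cy5 over Cy3, which the software had set to 0 at 2287 to 3749 features per chip, the p-value of its error model and the flags. The values of the deposited series matrix equalled log10 of processed Cy5 over Cy3, to within 5e-06, with no turn for the dye swap. The direction was taken from the dyes in the labels, which the methods also state, and was not tested. Median signals lay between 62.2 and 78.3 per dye and chip, and 67.5% to 82.5% of spots were well above background.

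Control and outlier-flagged spots were removed. Each ratio was expressed as log2 of running over sedentary and averaged over the spots of its probe, and the p-value of a probe was the median over its spots. A probe with several spots counted as well above background when more than 50% of them were. Accessions of the array (designed on an older build) were named through the GRCr8 RefSeq table. Calls required 1.5-fold up or 0.75-fold down on each chip of the pair, with p under 0.01 on each. The study's methods state a direction shared by both chips and a p-value threshold of 0.01, but not on how many chips it had to be met, so counts without it are given too. Without it, 225 probes were called in Sed × WR and 608 in Sed × RWR, against 13 and 24 with it. The numbers of changed genes that the study reported are nearer to the counts without it. The genes named were the 10 members with every probe, called genes and the gene furthest from 0 in each wider list, and the 2 genes nearest to Nr3c2. The rule also named the nearest of Crhr1, not given because its ratios rest on signals not above background. Other genes (Gadd45g and the cell type markers) were named after their values were seen. The members and lists were chosen with earlier results of these data known. The selection was tested on simulated data. Alternatives were the p-value filter, cutoffs of equal size, normexp (offset 50) or no background correction followed by loess in limma 3.58.1 (R 4.3.3), median centring, the series matrix, filters on dim probes, the median over a gene's probes, and either chip of the pair alone. Differences between RWR and WR under these settings were an addition made after seeing the data. Python 3.11.15 with numpy 2.4.6 and pandas 2.3.3 was used. RefSeq start-site windows were searched for short motifs by exact match.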

Additional observations from a re-analysis of the deposited data

Results flagged for a closer look

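The middle Fkbp5 probe (A_44_P519167) lay above 0 on both WR chips and below 0 on both RWR chips, and its same-dye log2 difference of RWR minus WR averaged -0.23. With normexp correction it read 0.014 on chip 4, so the RWR chips no longer shared a sign, and the difference was -0.19. The Sgk1 probe (A_44_P313542) also lay above 0 on both WR chips and below 0 on both RWR chips, with an average difference of -0.092, and kept these signs with normexp correction, where the difference was -0.12. With 1 pool per group the differences between the running modes were not tested.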

How the results depend on the processing

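The count of called stress-axis probes stayed at 0 in both comparisons under every alternative that kept both chips of a pair. With a chip left out, it was 2 in each comparison, always Crhr1 and Crhr2, and the count over the 87 probes of the wider lists, otherwise 0, was 3 to 7 in Sed × WR and 4 in Sed × RWR. Of all probes, 3.92% and 7.81% passed on chips 1 and 2 alone, and 6.89% and 6.27% on chips 3 and 4 alone. The median log2 ratio of the 10 genes was 0.014 to 0.080 in WR and -0.020 to 0.10 in RWR with a chip left out, and moved by less than the spread between chips under the other alternatives. Of the 16 probes, 14 kept the sign of their pair mean under normexp correction in WR and 14 in RWR, and 16 and 15 without background correction. Chip 1 alone, without chip 2, kept the sign of 9 and chip 2 alone that of 12 in WR, and chip 3 alone and chip 4 alone 11 each in RWR. The bright Nr3c2 probe was above 0 on 4 chips under each background correction, median centring and the series matrix. The same-dye difference of Crh turned from -0.15 to 0.015 under normexp correction, and the cause was not tested. No paired analysis was possible because the results come from no test. Low signal limits Crhr1, Crhr2 and the dimmer Nr3c2 probe.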

Other observations

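The following genes of the wider lists were chosen after their values were seen. Of the other peptides of the CRH family, Ucn had 1 chip past 2-fold (1.09 on chip 1) and read -0.59, -0.18 and 0.098 on chips 2 to 4, and Ucn2 was well above background in 1 of 8 dye and chip combinations. Pomc, the precursor of corticotropin, was bright (mean signal 446) and stayed between -0.020 and 0.084. Hsd11b2, which inactivates corticosterone, was well above background in 3 of 8 combinations and read 1.22, -0.42, 0.53 and -1.01.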
